A study of Mus musculus with 28 samples.

Results

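The genes described here are 9 core components of the Sonic hedgehog pathway, taken by name from the known pathway, with earlier results of these data known: the ligand gene Shh, the receptor gene Ptch1, the signal transducer Smo, the transcription factor genes Gli1, Gli2 and Gli3, the antagonist Hhip and the co-receptors Boc and Cdon. They are 9 of 28244 genes counted by RNA-seq of polyA-selected mouse RNA in 28 samples of 11 groups, and all 9 passed the filter on low counts in the 4 fits used for the values given, Shh and Gli1 in several comparisons only through groups with more counts. The study asked whether neural stem cells (NSCs) exist outside the central nervous system, and compared cultured lines of peripheral NSCs (pNSCs) with brain NSC lines, with cells of the source tissues and with neural crest stem cells (NCSCs). The first set held Brain-NSC, Tail-pNSC and Lung-pNSC lines and Tail and Lung cells (n = 2 each), whose labels name no transgene although the design matches the study's Nes-GFP experiment, in which GFP is driven by Nestin regulatory elements. A second set held Sox2-GFP brain NSCs and Sox2-GFP lung pNSCs (n = 3 each) and was compared with the same 2 Lung samples. The third set held Wnt1Cre-mTmG brain NSCs, Wnt1Cre-mTmG Tail pNSCs, Wnt1Cre-mTmG DRG pNSCs and DRG NCSCs (n = 3 each, DRG standing for dorsal root ganglion). In Wnt1Cre-mTmG mice Cre expressed from Wnt1 elements turns a membrane Tomato reporter to GFP in neural crest cells and their progeny, and the pNSCs obtained were Tomato+ and GFP-. By the labels every sample was C57BL/6, whereas the methods of the study describe transgenic lines bred with wild-type mice of CD1 or mixed CD1 and C3H background. Adult brain and lung came from mice of about 4 to 6 weeks and postnatal brain, lung, tail and DRG from days 1 to 5, but the labels do not tie an age to each sample. The lines shared an NSC medium with 10 ng/mL EGF and 10 ng/mL bFGF, and the protocols in the labels name no Hedgehog ligand or agonist in it. Each pNSC line was grown from a picked cluster that was usually clonal, so that a difference between lines can be a difference between clones.

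Hedgehog ligands are secreted, lipid-modified proteins that bind Patched1, the product of Ptch1, with the co-receptors Boc, Cdon and Gas1. Patched1 without ligand inhibits Smoothened, the product of Smo; ligand lifts this block at the primary cilium and turns the Gli proteins from repressors, chiefly Gli3, into activators, chiefly Gli2. Gli1, Ptch1 and Hhip are themselves direct targets, which makes Gli1 transcript a common readout of signalling and makes Ptch1 and Hhip, which bind the ligand, negative feedback. In the neural tube Shh from the notochord and floor plate sets ventral progenitor identity, and in the adult brain the pathway is known for maintaining stem cells of the ventricular wall.

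On GRCm38 the annotation (GENCODE) places Shh at chr5:28456815-28467256, Ptch1 at chr13:63508328-63573598, Smo at chr6:29735503-29761365, Gli1 at chr10:127329882-127341974, Gli2 at chr1:118834132-119053619, Gli3 at chr13:15463235-15730026, Hhip at chr8:79965851-80058006, Boc at chr16:44485049-44558897 and Cdon at chr9:35421128-35507652; Smo, Gli3 and Cdon lie on the plus strand. The counts cover whole genes. RefSeq promoter windows, 250 bases before to 50 after a start, matched 6 of the 9 genes. Gli proteins bind GACCACCCA, which was in none of these 6 windows on either strand and in 0.253% of 32851 mouse promoter windows. The shorter core CCACCC, which is part of that motif, was in 31.5% of all windows, and in those of Smo (1 match), Gli2 (2), Gli3 (1) and Hhip (1), and not in those of Ptch1 and Cdon. The windows of Ptch1 (chr13:63565686-63565985) and Cdon (chr9:35451826-35452125) lie inside the annotated genes, so the outermost starts of these 2 genes were not searched. The 250 bases before the start are shown for Hhip, at chr8:80058009-80058258, and Gli2, at chr1:119053620-119053869, both on the minus strand, because these genes spread widely between the lines; capitals mark the core on either strand, and neither stretch holds an annotated exon.
Hhip: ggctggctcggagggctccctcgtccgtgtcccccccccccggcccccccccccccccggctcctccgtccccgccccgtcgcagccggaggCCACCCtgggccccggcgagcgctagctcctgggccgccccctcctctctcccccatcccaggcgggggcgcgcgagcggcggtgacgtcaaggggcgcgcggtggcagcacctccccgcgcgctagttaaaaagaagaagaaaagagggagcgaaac
Gli2: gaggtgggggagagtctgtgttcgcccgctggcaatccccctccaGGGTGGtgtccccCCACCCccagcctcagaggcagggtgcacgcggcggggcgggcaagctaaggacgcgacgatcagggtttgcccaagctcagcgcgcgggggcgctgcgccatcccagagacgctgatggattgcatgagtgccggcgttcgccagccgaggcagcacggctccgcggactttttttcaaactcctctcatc
A match here is a description of letters and not of a bound site.

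The totals ran from 9808246 to 22637031 counts per sample, with the Wnt1Cre-mTmG brain NSCs and Wnt1Cre-mTmG DRG pNSCs at 9808246 to 11431445, and the detection limit used here, 3 counts in a library, corresponded to 0.133 to 0.306 cpm. Levels are given in cpm, counts per 1e6 counts, scaled over all 28 samples, as mean ± SD, and per kilobase of exon where genes are compared. Replicates were close, with squared differences 1.09 to 2.94 times counting error, except that replicate 3 of the DRG NCSCs stood apart (18.5 to 23.3 times). The labels do not say whether replicates were separate cultures or animals, so p-values measure the spread between these samples. All 6 neural stem cell markers, among them Olig2, Sox1 and Nes, exceeded 1 cpm in each of the 8 NSC and pNSC lines. The cells labelled Tail carried all 5 chondrocyte markers (summed 47523 to 48623 cpm), all 6 fibroblast markers and all 5 epithelial markers. They also carried all 4 endothelial (806 to 829 cpm) and all 6 Schwann cell and neural crest markers (809 to 818 cpm). The Lung cells carried endothelial (3905 to 3988 cpm), leukocyte (4094 to 4109 cpm) and fibroblast markers (3770 to 3884 cpm), and 4 of 5 epithelial markers. A difference from these mixed cells cannot tell fewer cells of a type from less RNA per cell.

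The pathway's receptors and transducer were abundant in all 8 NSC and pNSC lines, while Gli1 and Shh were close to the limit of detection. Over the 21 libraries of these lines, Ptch1 lay between 135 and 408 cpm, Smo between 139 and 200.7 and Cdon between 53.9 and 261, whereas Gli1 had 0 to 32 counts (at most 1.48 cpm) and Shh 0 to 27 counts (at most 1.25 cpm). The Tail cells, which had Ptch1 at 291 ± 1.12 cpm, had Gli1 at 101 ± 0.631 cpm.

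**Figure D1:**
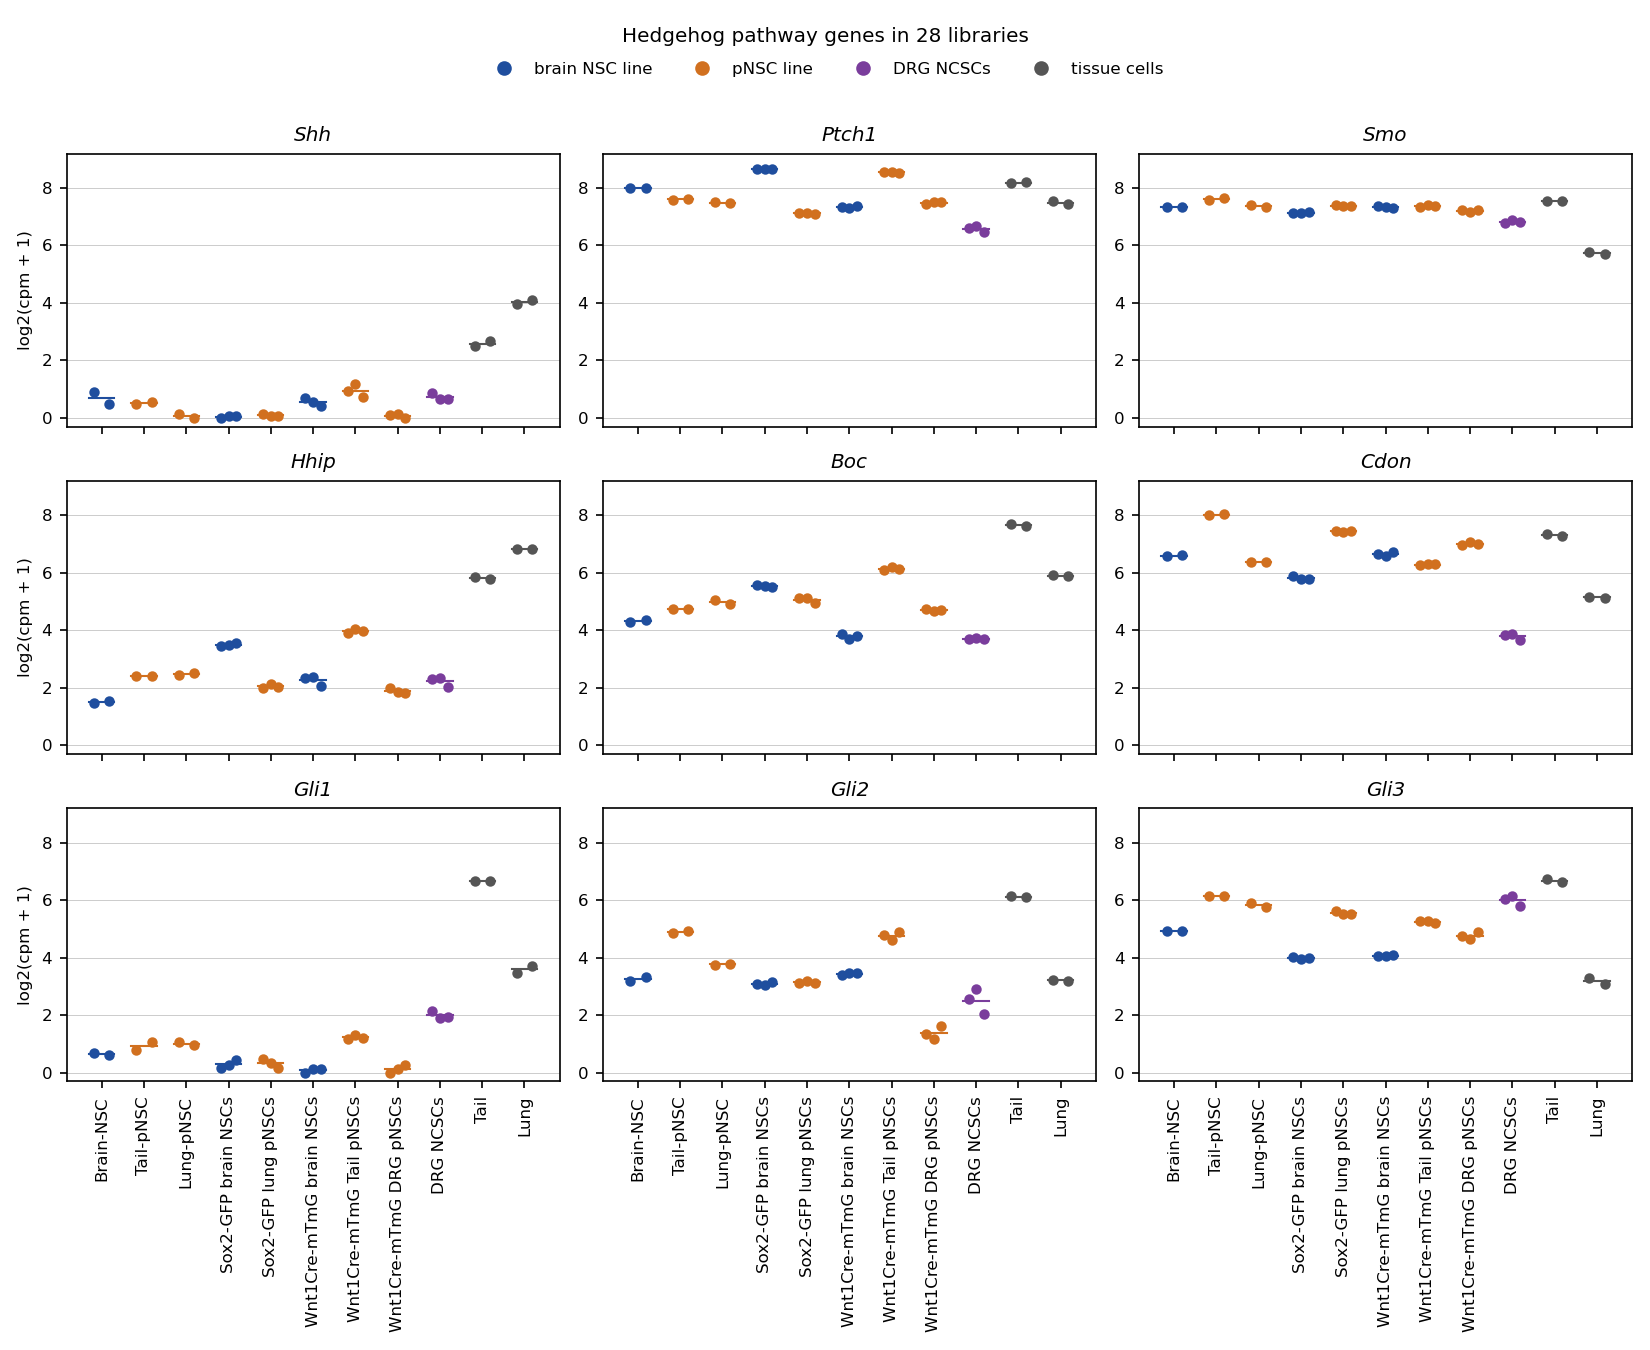
Levels of the 9 genes in the 28 libraries, as log2(cpm + 1), with 1 point a library and a bar at the group mean of the log2 values (n = 2 or 3). Ptch1 and Smo sit high in every line, and Gli1 and Shh sit near 0 in the lines and are highest in Tail and Lung.

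Shh, the ligand, was highest in Lung (14.8 and 16.1 cpm, 275 and 261 counts) and next in Tail (4.66 and 5.37 cpm, 83 and 84 counts), and these groups overlapped with no other. Among the lines, 4 groups had a low but repeated signal: Wnt1Cre-mTmG Tail pNSCs (21, 27 and 13 counts), Brain-NSC (17 and 8), Wnt1Cre-mTmG brain NSCs (7, 5 and 4) and Tail-pNSC (7 and 9), beside the DRG NCSCs (18, 12 and 10). These 5 groups overlapped with their neighbours in the order of levels. The other 4 lines were at or below the limit in every library: Lung-pNSC (2 and 0 counts), Sox2-GFP brain NSCs (0, 1 and 1), Sox2-GFP lung pNSCs (2, 1 and 1) and Wnt1Cre-mTmG DRG pNSCs (1, 1 and 0). In both lung lines, the DRG line and the Sox2-GFP brain line no library thus exceeded 3 counts. Of the exonic bases of Shh, 15.7% lie opposite an exon of 9530036O11Rik and 12.7% opposite one of Gm26894, and no source used here says whether counting was stranded, so reads of these transcripts cannot be told apart from Shh there.

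Ptch1, the receptor and feedback gene, kept within a 4.27-fold range of group means over all 11 groups. It was highest in the Sox2-GFP brain NSCs (408, 407 and 404 cpm) and the Wnt1Cre-mTmG Tail pNSCs (376, 379 and 368 cpm), both above the Tail cells (290.1 and 292 cpm). It was lowest in the DRG NCSCs (97.2, 101 and 87.1 cpm). Lung-pNSC, Wnt1Cre-mTmG DRG pNSCs and Lung, all near 179 cpm, did not differ beyond their spread, and all other neighbours in the order were separated. Smo, which the receptor inhibits, was the steadiest gene among the lines, with group means 1.39-fold apart, from the Sox2-GFP brain NSCs (140.4, 139 and 142 cpm) to Tail-pNSC (191 and 200.7 cpm), against 54.1 and 50.8 cpm in Lung. Per kilobase, the Ptch1 level was 32.8% to 116% of the Smo level in the lines, and 135% ± 1.73 in Lung.

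Hhip, the secreted and membrane-bound antagonist, was highest in Lung (113.4 and 113.5 cpm) and Tail (57.3 and 54.9 cpm). In the lines it reached 13.9, 15.6 and 14.8 cpm in the Wnt1Cre-mTmG Tail pNSCs and 9.90, 10.3 and 10.8 cpm in the Sox2-GFP brain NSCs, and was lowest in Brain-NSC (1.80 and 1.89 cpm). These 2 high lines were also the 2 highest for Ptch1. Per kilobase, Hhip stood at 1.10% to 6.43% of Ptch1 in the lines, 30.1% ± 1.03 in Tail and 99.5% ± 5.74 in Lung.

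The co-receptor genes Boc and Cdon, which encode related cell-surface proteins, had opposite orders in several lines. Cdon was highest in Tail-pNSC (258 and 261 cpm), above the Tail cells (162 and 156 cpm), and lowest in the DRG NCSCs (13.2, 13.7 and 11.7 cpm). Boc was highest in the Tail cells (207 and 199 cpm) and, among the lines, in the Wnt1Cre-mTmG Tail pNSCs (67.5, 73.1 and 69.2 cpm), with 12.9 ± 0.811 cpm in the Wnt1Cre-mTmG brain NSCs. On the per-kilobase scale the Boc level was 17.2% ± 0.134 of the Cdon level in Tail-pNSC, 157% ± 4.75 in the Wnt1Cre-mTmG Tail pNSCs, 142% ± 3.43 in the Sox2-GFP brain NSCs and 32.6% ± 2.44 in the Sox2-GFP lung pNSCs. It was 34.6% ± 0.242 in Brain-NSC and 22.3% ± 0.976 in the Wnt1Cre-mTmG brain NSCs.

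Gli1, the target gene used as a readout, spanned the widest range of the 9. Tail had 1817 and 1580 counts, Lung 186 and 198, and the DRG NCSCs 74, 58 and 48. Among the lines, counts were 29, 32 and 26 in the Wnt1Cre-mTmG Tail pNSCs, 23 and 17 in Lung-pNSC, 13 and 22 in Tail-pNSC, 12 and 11 in Brain-NSC, 8, 6 and 3 in the Sox2-GFP lung pNSCs and 2, 5 and 6 in the Sox2-GFP brain NSCs. In the Wnt1Cre-mTmG brain NSCs there were 0, 1 and 1 counts and in the Wnt1Cre-mTmG DRG pNSCs 0, 1 and 2, which at this depth are not distinguishable from absence. Per kilobase, Gli1 equalled Ptch1 in Tail (99.1% ± 0.999 of its level), stood at 17.8% ± 3.47 in Lung and 8.98% ± 1.16 in the DRG NCSCs, and was at most 1.69% in any of the 21 line libraries. Of the Gli1 exonic bases 5.31% face Gm47200 and 1.24% face Arhgap9 on the opposite strand; Arhgap9 had 11.1 cpm in Tail and 37.8 cpm in Lung, and its part in the Gli1 counts was not tested.

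**Figure D2:**
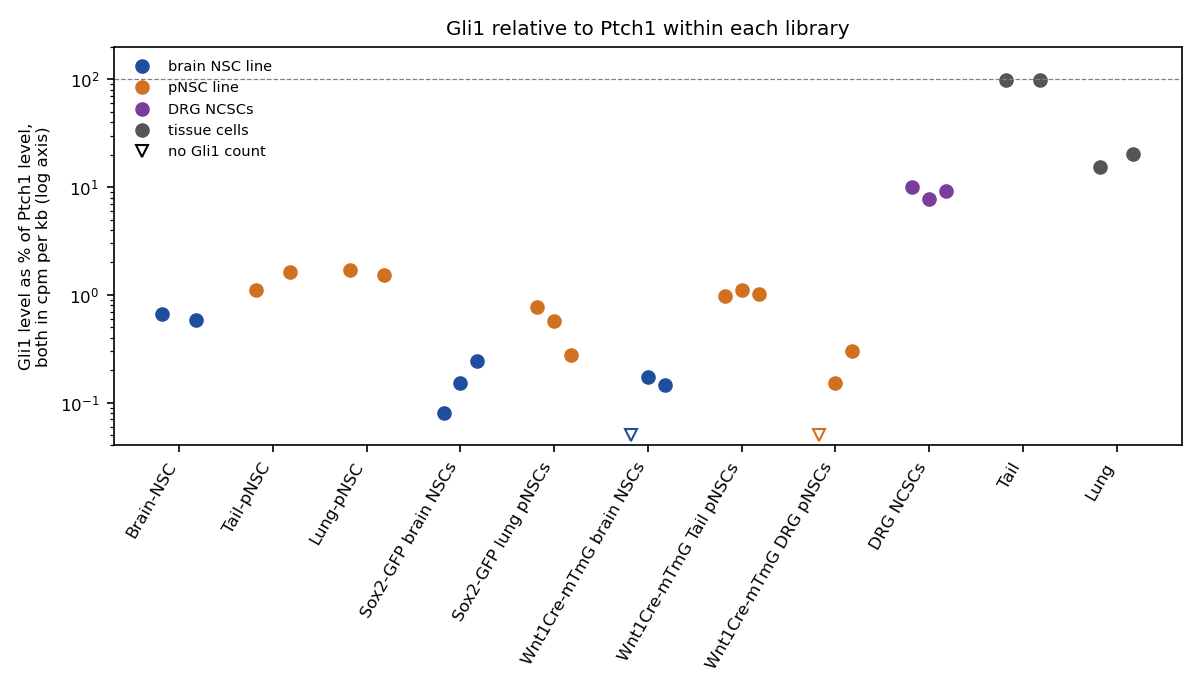
Gli1 level as a percentage of the Ptch1 level in each library, both in cpm per kilobase, on a log axis; open triangles mark libraries without a Gli1 count. The lines lie at or under 1.69%, the DRG NCSCs between 7.73% and 10.0%, Lung between 15.3% and 20.2% and Tail at 98.4% and 99.8%.

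Gli2 and Gli3, the factors that carry the first response and most of the repressor, were measured in every group. Gli2 was highest in Tail (70.0 and 67.9 cpm), followed by both tail lines, Tail-pNSC (28.2 and 29.3 cpm) and Wnt1Cre-mTmG Tail pNSCs (26.7, 23.7 and 28.9 cpm), which overlapped. The other 6 lines lay between 1.28 and 12.7 cpm, lowest in the Wnt1Cre-mTmG DRG pNSCs (1.53, 1.28 and 2.12 cpm; 18, 13 and 22 counts). Gli3 was highest in Tail (105 and 99.6 cpm) and Tail-pNSC (70.3 and 69.6 cpm), and lowest in Lung (8.72 and 7.45 cpm). As shares of the summed Gli level per kilobase, Gli3 made up 48.5% ± 2.72 (Wnt1Cre-mTmG Tail pNSCs) to 91.5% ± 1.59 (Wnt1Cre-mTmG DRG pNSCs) in the lines, and 83.6% ± 1.25 in the DRG NCSCs. In Tail and Lung the largest share was Gli1, with 49.6% ± 0.544 and 51.9% ± 4.87. Transcript shares say nothing of how the proteins are processed.

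**Figure D3:**
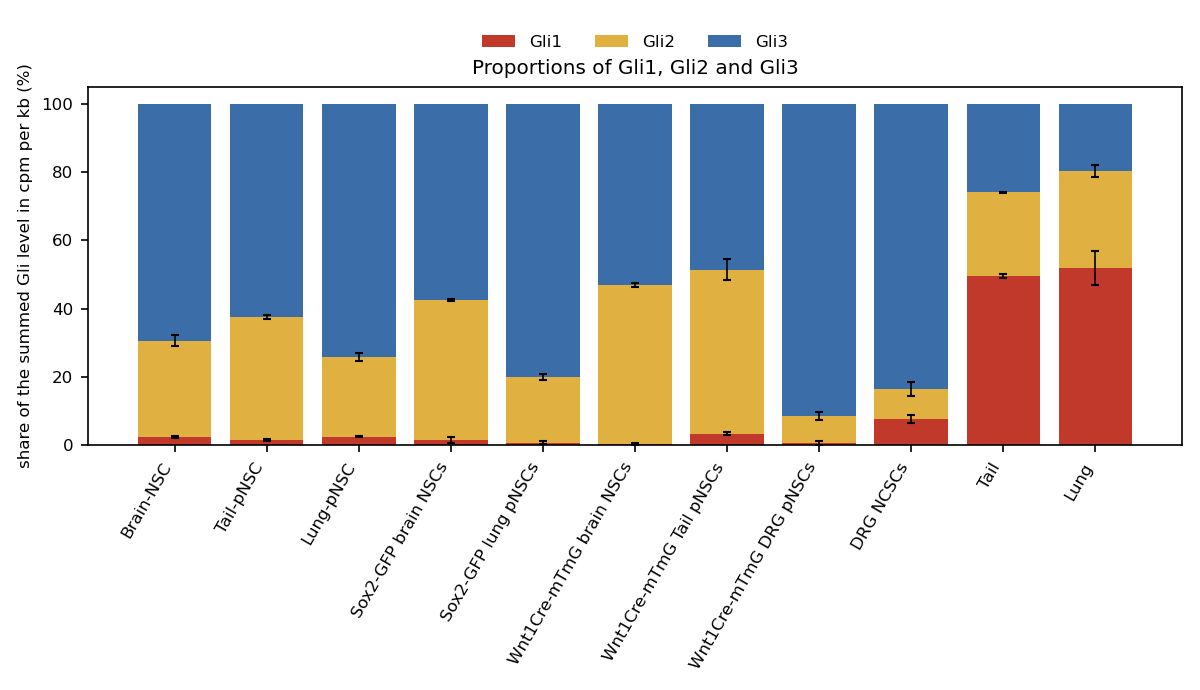
Mean share of Gli1, Gli2 and Gli3 in their summed level (cpm per kilobase) in each group; bars run from 0 to 100% and the error bars are the SD of the Gli1 and Gli2 shares (n = 2 or 3). Gli1 takes 49.6% in Tail and 51.9% in Lung and at most 3.41% in a line, where Gli3 and Gli2 make up the rest.

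Tail pNSCs were compared with brain NSCs in 2 experiments. Genes were tested with edgeR's quasi-likelihood test, two-sided, with Benjamini–Hochberg adjustment over all genes tested, and are called changed at an adjusted p under 0.05 and at least a 2-fold difference. In Tail-pNSC against Brain-NSC, 4 of the 9 genes were called, all higher, where 10.9% of all 16948 genes were called and 4.31% were called higher. Gli2 rose 3.26-fold (28.7 ± 0.766 against 8.68 ± 0.649 cpm; log2 fold change 1.70 ± 0.10 SE), Cdon 2.68-fold (260 ± 2.33 against 95.4 ± 1.60 cpm), Gli3 2.31-fold (69.9 ± 0.479 against 29.8 ± 0.0758 cpm) and Hhip 2.29-fold (4.30 ± 0.0333 against 1.85 ± 0.0574 cpm; adjusted p = 5.7e-08). Ptch1 was lower by less than 2-fold (log2 fold change -0.44 ± 0.04). Gli1 did not pass (0.71 ± 0.41, adjusted p = 0.14), nor did Shh (-0.53 ± 0.51, adjusted p = 0.43), whose sign turned to 0.14 without Brain-NSC replicate 1.

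In the Wnt1Cre-mTmG Tail pNSCs against the Wnt1Cre-mTmG brain NSCs, 6 of the 9 genes were called, all higher, with 18.2% of 14448 genes called, and 9.16% called higher. They were Boc (5.38-fold; 69.9 ± 2.86 against 12.9 ± 0.811 cpm), Hhip (3.83-fold; 14.8 ± 0.827 against 3.86 ± 0.559 cpm), Gli2 (2.65-fold), Gli3 (2.34-fold), Ptch1 (2.30-fold; 374 ± 5.52 against 162 ± 4.45 cpm) and Gli1. For Gli1, 87 counts in all stood against 2, a ratio of 22.7 per scaled count with a 95% counting interval of 6.09 to 190.03. Gli1 passed the filter only through groups with more counts than this brain line. Smo did not pass (log2 fold change 0.03 ± 0.04, adjusted p = 0.59). Cdon was lower by less than 2-fold (-0.38 ± 0.05). Shh was under the 2-fold limit (0.97 ± 0.39, adjusted p = 0.036) and passed it without Wnt1Cre-mTmG Tail pNSCs replicate 3 (1.16) or Wnt1Cre-mTmG brain NSCs replicate 1 (1.20). Fibroblast markers were also higher in these pNSCs, with all 6 above 1 cpm and a sum of 449 to 461 cpm against 50.6 to 54.4 cpm; their part in these differences was not tested.

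Both tail lines thus had more Gli2, Gli3 and Hhip than the brain line of their experiment, and the difference of the 2 effects was tested in 1 fit over all 28 samples. The effect differed for 5 of the 9 genes (16% of 17393 genes were called), namely Ptch1 (log2 difference -1.63 ± 0.06, Tail-pNSC effect minus Wnt1Cre-mTmG effect), Boc (-2.01 ± 0.10), Cdon (1.81 ± 0.06), Gli1 (-3.63 ± 0.80) and Shh (-1.49 ± 0.63, adjusted p = 0.046). The Gli1 value is a fitted one, as the Wnt1Cre-mTmG brain NSCs had at most 1 Gli1 count a library. Leaving out 1 replicate, that value ran from -4.03 to -3.09. The Shh call was lost without any 1 of 7 libraries, among them Brain-NSC replicate 1 (adjusted p = 0.43), and also with DESeq2 (adjusted p = 0.055) and without a filter (adjusted p = 0.057). For Gli3 the difference was -0.01 ± 0.11 and for Gli2 0.30 ± 0.17, neither past the test; for Hhip it was -0.74 ± 0.22, under the limit. Experiment, reporter and line cannot be told apart in this comparison.

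**Figure D4:**
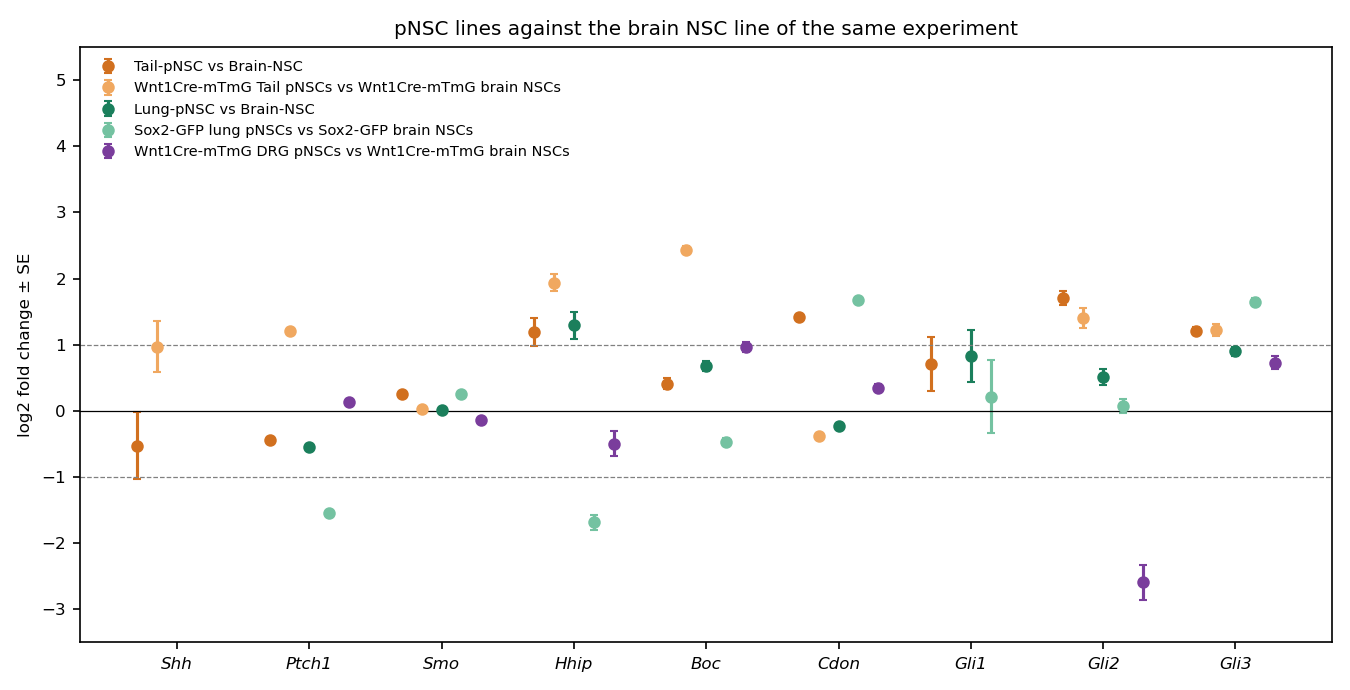
Log2 fold change ± SE of each gene in 5 pNSC lines against the brain NSC line of the same experiment, with dashed lines at the 2-fold limits; comparisons in which a group had at most 3 counts in every library are left out. Gli2 is above the limit in both tail lines (1.70 and 1.41) and below it in the DRG line (-2.59), and Ptch1 and Cdon take opposite sides in the Tail-pNSC and Wnt1Cre-mTmG Tail pNSCs.

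Lung pNSCs were also compared in 2 experiments, and here the genes moved in different directions. In Lung-pNSC against Brain-NSC, 2 of the 9 genes were called (8.71% of all genes): Hhip rose 2.46-fold (4.62 ± 0.194 against 1.85 ± 0.0574 cpm, adjusted p = 1.6e-09) and Shh fell, with 2 counts against 25, a ratio of 0.0832 with a counting interval of 0.00955 to 0.334. Shh passed the filter here through Tail and Lung, and with only these 2 groups fitted it was filtered out and 1 call was left. Gli3 was 1.86-fold and Gli2 1.43-fold higher, both under the limit. In the Sox2-GFP lung pNSCs against the Sox2-GFP brain NSCs, 4 were called (15.7% of 16234 genes). Cdon rose 3.18-fold (174 ± 2.44 against 55.7 ± 2.51 cpm) and Gli3 3.14-fold (45.9 ± 1.70 against 14.9 ± 0.417 cpm). Ptch1 fell by 1.54 on the log2 scale (138 ± 2.17 against 406 ± 2.01 cpm) and Hhip by 1.68 (3.16 ± 0.186 against 10.3 ± 0.441 cpm). Gli2 did not pass (0.07 ± 0.10, adjusted p = 0.56), and for Shh both groups were at the limit, so that no fold is given.

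The test of the difference between the lung effects called 5 of the 9 genes (14.1% of all genes), and 4 of them had counts above the limit in every group, namely Hhip (log2 difference 2.99 ± 0.20, Lung-pNSC effect minus Sox2-GFP effect), Boc (1.15 ± 0.09), Ptch1 (1.01 ± 0.06) and Cdon (-1.89 ± 0.06). The fifth was Shh, for which 3 of the 4 groups had at most 2 counts a library; the Sox2-GFP effect that is subtracted there is undefined, so no difference is read from it, and the call was lost without Brain-NSC replicate 1, Lung-pNSC replicate 2 or Sox2-GFP lung pNSCs replicate 1 (adjusted p 0.056, 0.064 and 0.090). Hhip was thus on opposite sides of its brain line in the 2 experiments, and the brain lines themselves differed in Hhip. The study describes the first lung line as adult and the second as postnatal, which cannot be told apart from the reporter.

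In the Wnt1Cre-mTmG DRG pNSCs against the Wnt1Cre-mTmG brain NSCs, 2 of the 9 genes were called, both lower, where 9.53% of all genes were called and 6.41% were called lower. Gli2 fell by 2.59 on the log2 scale (1.64 ± 0.431 against 9.93 ± 0.314 cpm, adjusted p = 3.1e-07). Shh had 2 counts against 16, a ratio of 0.129 with a counting interval of 0.0144 to 0.549, and it was filtered out, leaving 1 call, when the DRG NCSCs were left out of the fit or only these 2 groups were fitted. Boc was 1.95-fold and Gli3 1.66-fold higher, under the limit, and Gli1 was at the limit of detection in both groups.

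Between pNSC lines of different tissue, Gli2 was called higher in the tail line in both experiments that held one. Shh was also called in both comparisons, but it needed the counts of other groups to pass the filter, so no trait of tail lines is read from it. The study's text describes the Nes-GFP lung line as adult and the tail line as postnatal, so that tissue and age cannot be told apart in the first of these comparisons. Tail-pNSC against Lung-pNSC gave 3 calls, all higher (12.9% of all genes were called, 5% higher): Cdon 3.14-fold (log2 fold change 1.65 ± 0.04) and Gli2 2.28-fold higher (1.19 ± 0.10), and Shh with 16 counts against 2, a ratio of 8.44 (1.99 to 75.7), a call lost without Lung-pNSC replicate 2 (adjusted p = 0.060) and, as Shh was filtered out, with only these 2 groups fitted. The Wnt1Cre-mTmG Tail pNSCs against the Wnt1Cre-mTmG DRG pNSCs gave 6 calls, all higher (18% of all genes were called, 10.4% higher): Gli2 (16.0-fold), Hhip (5.40-fold), Boc (2.76-fold), Ptch1 (2.09-fold), Gli1 (87 counts against 3) and Shh (61 against 2), which was filtered out without the DRG NCSCs or without replicate 1 or 2 of these Tail pNSCs. Gli1 likewise passed the filter only through groups with more counts than these DRG pNSCs. Smo (1.12-fold) and Gli3 (1.41-fold) differed by less than 2-fold. These comparisons share lines with those above and are given side by side.

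Against the tissue cells, the pNSCs had less of the ligand transcript and of Gli1 and Hhip, while Ptch1 stayed within 2-fold and Smo was similar or higher. In Tail-pNSC against Tail 5 of the 9 genes were called, all lower, where 46.7% of all genes were called and 32.6% were called lower. The log2 fold change was -6.83 ± 0.13 for Gli1 (0.934 ± 0.262 against 101 ± 0.631 cpm), -3.80 ± 0.10 for Hhip (4.30 against 56.1 cpm) and -3.60 ± 0.33 for Shh (0.431 against 5.01 cpm). It was -3.07 ± 0.06 for Boc (25.8 against 203 cpm) and -1.36 ± 0.07 for Gli2 (28.7 against 68.9 cpm). Smo did not pass (-0.02 ± 0.04, adjusted p = 0.58), with a sign that turned under upper-quartile scaling (0.027). Ptch1 was 0.623 and Cdon 1.53 times its level in Tail, both within 2-fold. In Lung-pNSC against Lung, with 55% of all genes called, 3 genes were higher and 3 lower. Gli3 rose 6.70-fold (56.2 ± 3.26 against 8.09 ± 0.896 cpm), Smo 3.06-fold and Cdon 2.31-fold. Hhip fell by 4.67 on the log2 scale (4.62 against 113 cpm) and Gli1 by 3.47 (1.02 against 11.1 cpm); Shh had 2 counts against 536, a ratio of 0.00333 (0.000402 to 0.0121). Ptch1 did not pass (log2 fold change -0.04 ± 0.04, adjusted p = 0.25), and its sign turned under upper-quartile scaling (0.036). Boc was just under the limit (-0.98 ± 0.06) and passed it without Lung-pNSC replicate 1 (-1.05), with DESeq2 (-1.07) and at a mean count of 100 or more (-1.13). The Sox2-GFP lung pNSCs, compared with the same Lung samples, gave 6 calls (56.3% of all genes): Gli3 (5.55-fold), Cdon (4.97-fold) and Smo (3.10-fold) higher, and Shh (4 counts against 536), Gli1 (fell by 5.40) and Hhip (fell by 5.19) lower. The Lung samples belong to the first set, so that experiment and reporter cannot be told apart from cell type there. Age may differ as well, as the labels tie none to the Lung samples. Epithelial markers summed to at most 0.253 cpm in the pNSC lines, against 2782 to 2825 cpm in Tail and 683 to 698 cpm in Lung; the part of cell composition in these values was not tested.

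The DRG NCSCs had most Gli1 outside the tissues and least Ptch1 and Cdon. Against the Wnt1Cre-mTmG brain NSCs 4 of the 9 genes were called (36.9% of all genes). Gli1 was higher (180 counts against 2, a ratio of 50.3, counting interval 13.7 to 418) and Gli3 rose 4.02-fold (63.1 ± 7.18 against 15.8 ± 0.0938 cpm). In the Wnt1Cre-mTmG set Gli1 passed the filter only through the DRG NCSCs and the Tail pNSCs. Cdon fell by 2.95 on the log2 scale (12.8 ± 1.04 against 100.3 ± 4.71 cpm) and Gli2 by 1.01, a call that ended without replicate 3 of the DRG NCSCs, the library that stood apart (-0.80), or without Wnt1Cre-mTmG brain NSCs replicate 2 (-0.997). That call also ended with DESeq2 (-0.98), without a filter (-0.98) and at a mean count of 100 or more (-0.97). The study's text describes NCSCs from the DRG of adult wild-type mice, whereas the DRG pNSCs carried Wnt1Cre-mTmG and the labels describe DRG cells as postnatal, so that cell type, genotype and age cannot be told apart between them. The DRG pNSCs differed from the DRG NCSCs in 6 genes (38.3% of all genes): Cdon (9.89-fold) and Boc (2.08-fold) were higher, and Gli1 (3 counts against 180), Shh (2 against 40, filtered out with only these groups fitted), Gli2 (fell by 1.59) and Gli3 (fell by 1.28) were lower. The Wnt1Cre-mTmG Tail pNSCs also differed in 6 genes (37.9% of all genes), with Cdon (5.94-fold), Boc (5.76-fold), Gli2 (5.32-fold), Hhip (3.91-fold) and Ptch1 (3.89-fold) higher and Gli1 lower (fell by 1.16). Without replicate 3 of the DRG NCSCs the count of called genes was 6 in each of the last 2 comparisons. All 6 Schwann cell and neural crest markers exceeded 1 cpm in the DRG NCSCs (summed 3363 to 3498 cpm), as did all 6 fibroblast markers (2846 to 3501 cpm) and all 4 leukocyte markers (549 to 580 cpm), and their part in these values was not tested.

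The 3 brain NSC lines were not alike in this pathway, which bears on each comparison that uses them. Brain-NSC and Wnt1Cre-mTmG brain NSCs differed in 2 genes (12.5% of all genes), Gli1 (23 counts against 2, ratio 9.44, counting interval 2.33 to 82.6), filtered out when only these 2 groups were fitted, and Hhip (log2 fold change -1.04 ± 0.18), the latter just past the limit and lost without Wnt1Cre-mTmG brain NSCs replicate 1 (-0.99) or 2 (-0.97). The Sox2-GFP brain NSCs stood further off: against the Wnt1Cre-mTmG brain NSCs 4 genes were called (15.5% of all genes), Boc (3.51-fold), Hhip (2.67-fold) and Ptch1 (2.49-fold) higher and Shh lower (2 counts against 16, filtered out with only these groups fitted). Without Sox2-GFP brain NSCs replicate 1 Gli1 was also called (adjusted p = 0.046). Brain-NSC against Sox2-GFP brain NSCs gave 5 calls (19% of all genes), with Shh (25 counts against 2, filtered out with only these groups fitted), Gli1 (2.50-fold) and Gli3 (2.04-fold) higher and Boc (fell by 1.24) and Hhip (fell by 2.46) lower. Of these calls, that of Gli1 ended without Brain-NSC replicate 1 (adjusted p = 0.087) or Sox2-GFP brain NSCs replicate 1 (adjusted p = 0.075), and that of Gli3, at 1.03, without Sox2-GFP brain NSCs replicate 2 (0.98), with upper-quartile scaling (0.98) or with DESeq2 (0.99), and without a filter it was just under the limit (0.99986). Experiment, reporter and line cannot be told apart between these groups.

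The rest of the pathway was taken from 6 lists of known genes. Of the 18 cytoplasmic and ciliary regulators found in the table (such as Sufu, which holds Gli proteins in the cytoplasm, and Kif7, the kinesin of the cilium tip) and the 14 genes of cilium transport and structure, edgeR and DESeq2 called none in Tail-pNSC or Lung-pNSC against Brain-NSC, in the Wnt1Cre-mTmG DRG pNSCs against their brain line or in the Sox2-GFP lung pNSCs against theirs. By edgeR, 10.9%, 8.71%, 9.53% and 15.7% of all genes were called in these comparisons, in that order. An unadjusted p under 0.05, at smaller differences, was reached by 12, 13, 8 and 13 regulators and by 6, 7, 9 and 12 cilium genes in these 4 comparisons. The share of all genes at that threshold is not given here, so these counts are not read as a result about the lists. In the Wnt1Cre-mTmG Tail pNSCs only Evc, a ciliary Smoothened partner, was called (29.0 ± 0.944 against 72.7 ± 2.57 cpm), where 18.2% of all genes were called. The medians of the first list were -0.06 to 0.29 in these 5 comparisons, where those of all genes were 0 to 0.01. Sufu itself had 44.7 to 90.2 cpm over the group means.

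The ligand genes other than Shh were high in few groups. Ihh, the cartilage ligand, had 57.5 cpm in Tail and at most 0.500 cpm in any other group, beside the Tail cells' chondrocyte markers. Dhh, the ligand of Schwann cells, had 72.7 ± 3.89 cpm in the DRG NCSCs and 15.4 ± 0.444 cpm in the Wnt1Cre-mTmG brain NSCs, with 6.01 cpm in Tail, 2.81 cpm in Lung and at most 0.844 cpm in the other 7 lines. The annotated Dhh gene overlaps Rhebl1 on the same strand, so that part of its reads may be uncertain. Hhat, which attaches the lipid to the ligand, and Scube1, Scube2 and Scube3, which help release it, were all called lower in Lung-pNSC against Lung and in Tail-pNSC against Tail. Of the 7 genes of this list, 6 were called in each of these 2 comparisons, 5 and 6 of them lower, where 55% and 46.7% of all genes were called, with medians of -6.14 and -6.48 beside -0.15 and -0.16 for all genes. Gas1, a co-receptor anchored by a lipid, was high in all lines (78.7 to 155 cpm) and lower in the DRG NCSCs (26.7 cpm).

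Known Gli targets beyond the 9 genes include factors of ventral neural tube identity. Nkx6-1, a ventral progenitor factor, had 73.5 ± 1.61 cpm in Tail-pNSC and 91.2 ± 1.17 cpm in the Wnt1Cre-mTmG Tail pNSCs, 8.91 cpm in the Wnt1Cre-mTmG DRG pNSCs and at most 0.569 cpm in the other 5 lines. It had no count in Brain-NSC, so that the difference of Tail-pNSC was at least 498-fold against 3 counts per library. Nkx2-2, also a ventral factor, followed another order. It had 13.0 to 31.9 cpm in the 3 brain lines, the Wnt1Cre-mTmG Tail pNSCs and the Wnt1Cre-mTmG DRG pNSCs. In Tail-pNSC and both lung lines it had 0.651 to 2.63 cpm. Olig2, of the motor neuron and oligodendrocyte domain, was between 890.2 and 1370.2 cpm in every line. Foxa2, a floor plate factor, had at most 0.438 cpm in any line. In all, 9 of 15 tested targets were called in Tail-pNSC against Brain-NSC (7 higher, 2 lower), 6 of 13 in the Wnt1Cre-mTmG Tail pNSCs (4 and 2), 5 of 15 in Lung-pNSC (3 and 2), 7 of 13 in the Sox2-GFP lung pNSCs (4 and 3) and 4 of 13 in the Wnt1Cre-mTmG DRG pNSCs (1 and 3). The shares of all genes called were 10.9%, 18.2%, 8.71%, 15.7% and 9.53% in that order. Of all genes, 4.31% were called higher in Tail-pNSC and 9.16% in the Wnt1Cre-mTmG Tail pNSCs. Some tested targets had few counts in both groups and passed the filter through Tail and Lung, such as Foxa2 (5 and 2 counts in Tail-pNSC, none in Brain-NSC). The list medians were 1.10, -0.22, 0.53, 0.20 and -0.06, and 0.24, -0.22, 0.15, 0.20 and 0.17 with genes that had no count in 1 group set at their bound. The targets included both cyclin D genes, which many growth signals drive: Ccnd1 ranged from 175 cpm in the Sox2-GFP brain NSCs to 1448 cpm in the Wnt1Cre-mTmG brain NSCs.

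Dorsal and intermediate neural tube genes, which Hedgehog represses, were present beside the ventral ones. Pax3, a dorsal neural tube and neural crest factor, had 20.9 to 25.2 cpm in Lung-pNSC and both Sox2-GFP lines and 9.46 cpm in the Wnt1Cre-mTmG DRG pNSCs, and no count in Brain-NSC, Tail-pNSC or the Wnt1Cre-mTmG brain NSCs. Against 3 counts per library, its level in Lung-pNSC was at least 154-fold that of Brain-NSC. Pax6 was between 32.4 and 77.0 cpm and Dbx2 between 43.0 and 262 cpm in all lines. In the Wnt1Cre-mTmG DRG pNSCs 5 of the 6 tested genes were called higher than in their brain line and none lower, where 9.53% of all genes were called, with Pax3 at least 35.1-fold higher; the list median was 1.71, beside 0.01 for all genes. In the other 4 comparisons with a brain line the calls were split or few: 2 higher and none lower of 8 in Tail-pNSC, 3 and 1 of 8 in Lung-pNSC, 2 and 1 of 6 in the Wnt1Cre-mTmG Tail pNSCs, and 1 and 2 of 6 in the Sox2-GFP lung pNSCs, beside 10.9%, 8.71%, 18.2% and 15.7% of all genes called in either direction.

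**Figure D5:**
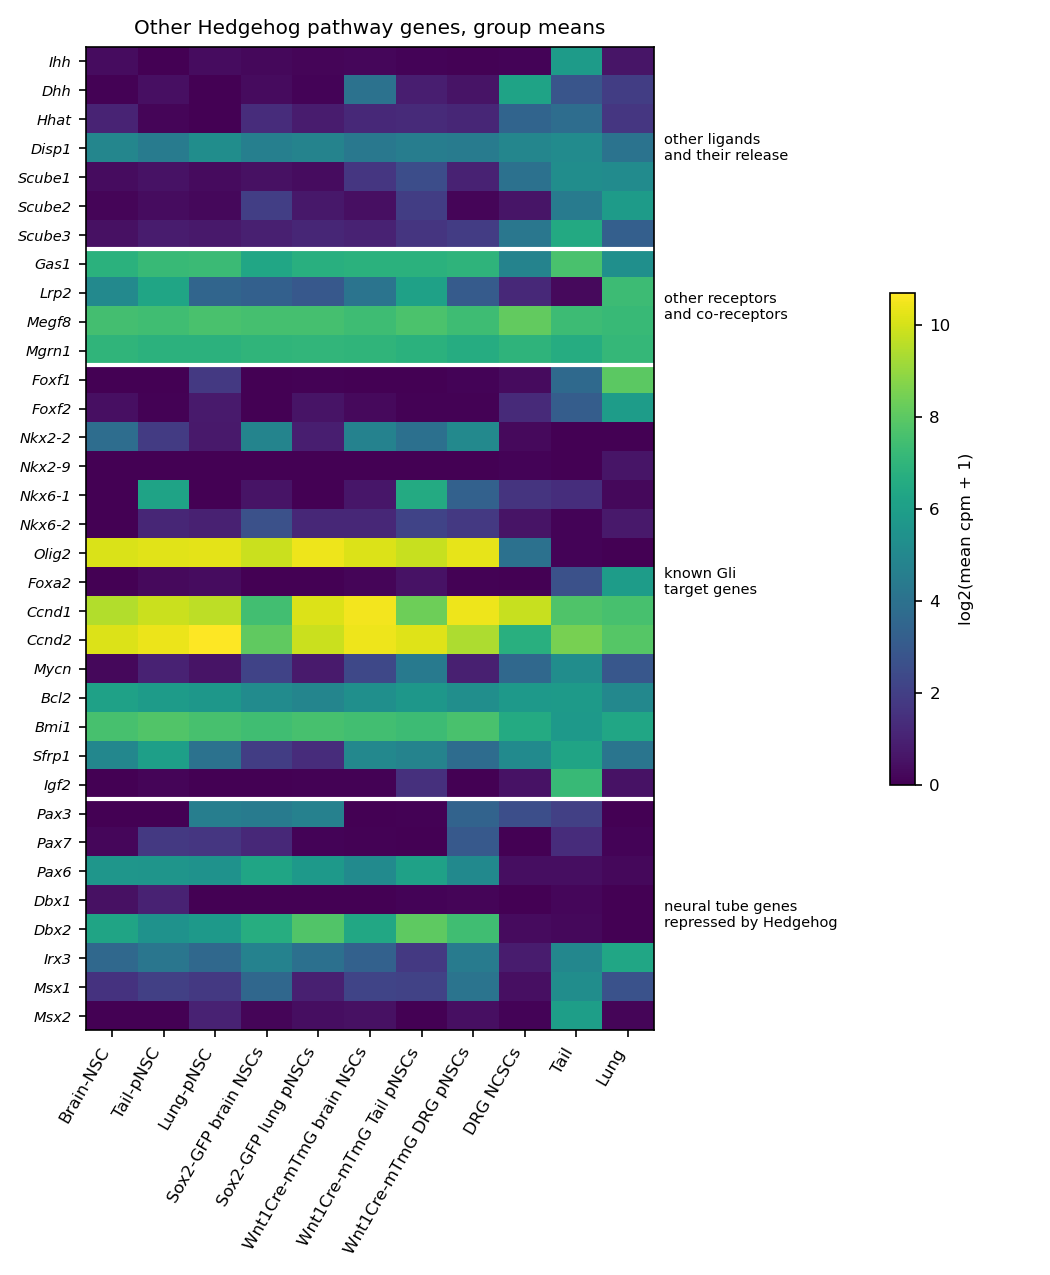
Group means, as log2(mean cpm + 1), of genes outside the 9, from 4 lists of pathway genes. Nkx6-1 is bright in both tail lines (73.5 and 91.2 cpm), Ihh in Tail only (57.5 cpm), Dhh in the DRG NCSCs and the Wnt1Cre-mTmG brain NSCs (72.7 and 15.4 cpm), and Olig2 in all 8 lines.

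How the 9 genes varied with each other is given as a description over group means of log2(cpm + 1), which share one scaling and in which Tail and Lung set most of the high values. Over the 11 groups Hhip followed Shh (Pearson's r = 0.90), Gli1 (0.79) and Boc (0.78), while Gli1 and Ptch1 had r = 0.12. Over the 8 lines Hhip followed Boc (0.81) and Ptch1 (0.72), Smo followed Gli3 (0.80), and Ptch1 and Cdon ran opposite (-0.66). The genes most like Gli1 over the 11 groups, of 14445 with at least 5 cpm in 1 group or more, were Fut2, Anxa9, Srpx, Glt8d2 and Hspa1a (r 0.983 to 0.985). Over the 8 lines, where Gli1 itself was near the limit, they were Jag1, Stk3, Atxn2, Ctdsp1 and Csnk2a1 (r 0.955 to 0.977, of 11577 genes).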

How the data were processed

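PolyA-selected RNA was sequenced as single-end reads. The authors aligned reads to GRCm38 with HISAT2, used Cufflinks for annotation and counted reads per gene with HTSeq; strand setting and annotation release are not given in the sources used here. The deposited values are raw read counts per gene, with no normalization and 0 columns of unknown sample.

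Groups follow the sample titles. Each experiment was fitted separately with edgeR 4.0.16 in R 4.3.3: TMM scaling, low-count filter with a minimum count of 10 and a minimum total of 15, quasi-likelihood F test, two-sided, Benjamini–Hochberg adjustment. Fits tested 16948 (first set), 14448 (Wnt1Cre-mTmG set) and 16234 genes (Sox2-GFP set with Lung); brain lines and the differences of effects came from 1 fit of all 28 samples (17393 genes). On simulated data, 200 of 200 changed genes were recovered in each of the 4 fits, with at most 1 false call. These totals are not split by count level or by size of difference. Recovery was not tested separately for genes with as few counts as Shh and Gli1, or for differences near the 2-fold limit. Intervals for totals of few counts are exact binomial, at 95%, and cover counting error only. The detection limit was 3 counts per library. Figures used matplotlib 3.10.9.

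Replicate numbers did not pair samples (correlation of deviations between same-numbered samples -0.0293 to 0.0280).

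The 9 genes and all lists were chosen with earlier results of these data known. All 9 are named; of each list, the gene with the largest change past both thresholds, genes at the detection limit and, for Gli1, the 5 genes most like it. Other list genes given with values, such as Sufu, Gas1, Nkx2-2, Olig2, Ccnd1, Pax6 and Dbx2, were chosen after their values were seen. In addition, 1 gene that this rule names is counted in its lists and given neither name nor value here. Alternatives were DESeq2 1.42.0, upper-quartile scaling, no filter, a mean count of 100 or more, other sample sets in the fit, a replicate block, no limit on the fold change, and leaving out each replicate. A fit of the Wnt1Cre-mTmG set without the DRG NCSCs was added after seeing the data.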

Additional observations from a re-analysis of the deposited data

Results flagged for a closer look

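In each of 2 pairs of experiments edgeR's test of the difference between the effects of pNSC line against brain line called 5 of the 9 genes. Of all 17393 genes tested, 16% were called for the tail lines and 14.1% for the lung lines. For the tail lines (Tail-pNSC effect minus Wnt1Cre-mTmG effect, log2) the differences were -3.63 for Gli1, -2.01 for Boc, -1.63 for Ptch1, -1.49 for Shh and 1.81 for Cdon. The Gli1 value is a fitted one in which the Wnt1Cre-mTmG brain NSCs had at most 1 count a library, and is no bound, and the Shh call was lost with DESeq2 (adjusted p = 0.055), without a filter (adjusted p = 0.057) and without any 1 of 7 libraries. For the lung lines (Lung-pNSC effect minus Sox2-GFP effect, log2) they were -4.15 for Shh, 2.99 for Hhip, 1.15 for Boc, 1.01 for Ptch1 and -1.89 for Cdon. The Shh value is likewise a fitted one: 3 of the 4 groups had at most 2 counts a library, the Sox2-GFP effect is undefined, and no difference in Shh is read from it. Experiment, reporter and line cannot be told apart in these differences.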

How the results depend on the processing

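Over all alternatives, 446 counts of called genes stayed within 1.5 times the value given and 44 did not. Without the fold limit, the 9 genes gave 7 calls in each of Tail-pNSC and Lung-pNSC against Brain-NSC, Tail-pNSC against Lung-pNSC, and Sox2-GFP against Wnt1Cre-mTmG brain NSCs; 8 in Tail-pNSC against Tail, Wnt1Cre-mTmG DRG pNSCs against brain NSCs, Brain-NSC against Sox2-GFP brain NSCs and the lung difference of effects; and 5 in Brain-NSC against Wnt1Cre-mTmG brain NSCs. The other pathway genes then gave 41, 38 and 39 calls (Tail-pNSC and Lung-pNSC against Brain-NSC and each other), 58 and 61 (against Tail and Lung), 49, 32 and 46 (Wnt1Cre-mTmG Tail and DRG pNSCs against brain NSCs and each other), 52, 57 and 55 (DRG NCSCs with brain NSCs, Tail pNSCs and DRG pNSCs), 49 and 59 (Sox2-GFP lung pNSCs against brain NSCs and Lung), 40, 46 and 48 (brain lines) and 42 and 36 (tail and lung differences of effects). The shares of all genes called without the fold limit are not given here. These counts therefore show only how the calls depend on the limit, and are not read as a result about the pathway. With a mean count of 100 or more, calls among the 9 fell to 1 (Lung-pNSC against Brain-NSC), 1 (DRG pNSCs against brain NSCs), 2 (DRG NCSCs against brain NSCs) and 3 (DRG pNSCs against DRG NCSCs), and those of other genes to 9, 4, 8, 9, 15, 17 and 7 (Tail-pNSC and Lung-pNSC against Brain-NSC, DRG pNSCs against brain NSCs, Tail pNSCs against DRG pNSCs and DRG NCSCs, DRG pNSCs against DRG NCSCs, Sox2-GFP lung against brain); fewer genes were then tested, and 2 tested members fell under the fold limit, Gli2 in DRG NCSCs against brain NSCs (-0.97) and Boc in DRG pNSCs against DRG NCSCs (0.994), while Boc in Sox2-GFP lung pNSCs against Lung passed it (-1.04). The shares of all genes called at that mean count are not given here. These counts too are not read as a result about the pathway. With only the compared groups fitted, 1 call was left in each of Lung-pNSC against Brain-NSC, DRG pNSCs against brain NSCs and Brain-NSC against Wnt1Cre-mTmG brain NSCs, and without the DRG NCSCs 1 in DRG pNSCs against brain NSCs, as Shh or Gli1 no longer passed the filter. Leaving out 1 replicate gave 1 to 2 calls in Brain-NSC against Wnt1Cre-mTmG brain NSCs.

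Signs turned only in log2 fold changes that were not called. Smo turned in Tail-pNSC against Tail (0.027 with upper-quartile scaling, 0.062 over all 28 samples, -0.059 to 0.019 leaving out 1 replicate), in Lung-pNSC against Brain-NSC (-0.019 to 0.054 leaving out 1) and in Brain-NSC against Wnt1Cre-mTmG brain NSCs (-0.035 upper-quartile, -0.016 at a mean count of 100, -0.016 DESeq2, -0.010 with only these groups, -0.0080 to 0.031 leaving out 1). Ptch1 turned in Lung-pNSC against Lung (0.036 upper-quartile, 0.016 without a filter, -0.092 to 0.053 leaving out 1). Hhip turned in DRG NCSCs against brain NSCs (0.0052 at a mean count of 100, 0.0068 DESeq2, -0.16 to 0.071 leaving out 1). Leaving out 1 replicate also turned Shh (-0.996 to 0.14, Tail-pNSC against Brain-NSC; -0.30 to 0.83, Brain-NSC against Wnt1Cre-mTmG brain NSCs), Gli1 (-0.45 to 0.13, Tail-pNSC against Lung-pNSC; -0.13 to 0.58, Sox2-GFP lung against brain) and Gli3 (-0.032 to 0.013, tail difference of effects).

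With the replicate block, 4 of the 9 genes were called in Brain-NSC against Sox2-GFP brain NSCs (Gli1 lost, adjusted p = 0.069) and 4 in the tail difference of effects (Shh lost, adjusted p = 0.065); in Brain-NSC against Wnt1Cre-mTmG brain NSCs Hhip was lost (-0.96) and Gli3 gained (1.02). The block changed no other call among the 9. Values of Shh and Gli1 in the lines rest on 0 to 32 counts a library, and depth limits them most in the Wnt1Cre-mTmG brain NSCs and DRG pNSCs.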
